A study of Arabidopsis thaliana with 20 samples.

Results

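The genes described here are 10 genes of Arabidopsis thaliana grouped as morning clock genes, taken by their identifiers from all deposited tables. They are the MYB-like transcription factors LHY, CCA1, RVE1, RVE2, RVE4, RVE6, RVE7 and RVE8, and the coactivators LNK1 and LNK2. They are 10 of 33104 genes in the tables. All 10 were among the 19311 genes that passed a filter on low values, at least 1 FPKM in at least 2 libraries. FPKM are fragments scaled by gene length and by a size set for each library. Poly-A RNA of whole leaves was sequenced from the wild type Col-0 and from ilp1-1, a line with a mutant allele of ILP1, whose product takes part in RNA splicing. The plants were 4 weeks old and had grown under short days, 10 h of light at 100 µmol and 14 h of dark. High light of 500 µmol began 2 h after lights on, and leaves were taken at 0, 4, 8 and 16 h of it. The last harvest, at 30 h, followed 24 h in high light and a return to growth light for 6 h. Each combination of genotype and time had 2 libraries, 20 in all. The labels do not say whether replicates came from separate plants, so the p-values cover the spread between these libraries and nothing wider. Harvests fell 2, 6, 10 and 18 h after lights on, and 8 h into the second day. Since no plants left in growth light and sampled at those hours are analysed here, the light treatment and the hour of the day cannot be told apart.

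CCA1 and LHY form the morning arm of the plant clock. Their transcripts peak around dawn, and their proteins repress genes expressed later in the day, among them TOC1 and other PRR genes, which in turn repress CCA1 and LHY. RVE4, RVE6 and RVE8 carry the same MYB-like domain but act in the opposite sense, as activators of evening genes, and LNK1 and LNK2 are recruited by such proteins as coactivators. RVE1 connects the clock to auxin synthesis, whereas RVE2 and RVE7 are further family members whose overexpression disturbs clock-controlled transcripts.

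The 300 bases before each annotated gene start were read from the TAIR10.1 sequence. They were searched on both strands for the G-box (CACGTG), the evening element (AAAATATCT) and the CCA1 binding site (AAAAATCT), and no match overlapped another. The 5 windows printed here are those with a G-box or an evening element, motifs named for light and clock regulation. Each reads 5′ to 3′ on the strand of its gene, and capitals mark the motifs. The window of LHY is chr1:37872-38171 on the minus strand, and that of CCA1 is chr2:19245291-19245590 on the plus strand. Those of RVE1 (chr5:5692993-5693292), RVE2 (chr5:14753089-14753388) and RVE7 (chr1:6308244-6308543) are on the minus strand.
LHY: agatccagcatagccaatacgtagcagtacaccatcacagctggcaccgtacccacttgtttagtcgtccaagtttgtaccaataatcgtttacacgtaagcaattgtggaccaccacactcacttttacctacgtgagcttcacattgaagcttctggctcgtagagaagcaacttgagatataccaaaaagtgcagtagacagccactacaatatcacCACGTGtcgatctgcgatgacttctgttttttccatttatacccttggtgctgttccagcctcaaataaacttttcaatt
CCA1: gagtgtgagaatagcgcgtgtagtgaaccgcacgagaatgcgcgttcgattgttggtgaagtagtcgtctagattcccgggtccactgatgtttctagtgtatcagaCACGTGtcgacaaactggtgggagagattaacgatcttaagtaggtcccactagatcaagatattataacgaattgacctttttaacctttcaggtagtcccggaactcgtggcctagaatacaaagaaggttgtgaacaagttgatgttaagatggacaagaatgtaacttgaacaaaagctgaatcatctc
RVE1: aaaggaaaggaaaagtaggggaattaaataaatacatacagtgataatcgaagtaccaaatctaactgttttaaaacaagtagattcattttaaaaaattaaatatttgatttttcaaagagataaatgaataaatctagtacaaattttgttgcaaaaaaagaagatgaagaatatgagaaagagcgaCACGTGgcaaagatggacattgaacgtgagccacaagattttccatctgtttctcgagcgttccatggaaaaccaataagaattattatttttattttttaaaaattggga
RVE2: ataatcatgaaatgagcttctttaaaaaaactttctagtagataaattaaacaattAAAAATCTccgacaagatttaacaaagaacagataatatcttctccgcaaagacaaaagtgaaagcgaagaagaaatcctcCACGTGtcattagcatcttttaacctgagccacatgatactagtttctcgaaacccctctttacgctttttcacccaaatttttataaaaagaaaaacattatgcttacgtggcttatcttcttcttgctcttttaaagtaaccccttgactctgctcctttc
RVE7: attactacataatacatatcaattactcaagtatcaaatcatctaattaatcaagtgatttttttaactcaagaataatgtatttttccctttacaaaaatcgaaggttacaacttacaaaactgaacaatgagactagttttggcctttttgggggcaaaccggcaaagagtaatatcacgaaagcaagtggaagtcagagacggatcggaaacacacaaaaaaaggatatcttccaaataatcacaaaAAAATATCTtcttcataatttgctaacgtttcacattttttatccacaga
The G-box was found in 4 of the 10 windows, and in 7.08% of 27419 windows of this length before protein-coding nuclear genes. The windows of RVE4 and LNK1, which held none of the motifs, overlap other annotated genes. Its first base lay at -80 from the gene start in LHY, -193 in CCA1, -111 in RVE1 and -163 in RVE2. The CCA1 binding site stood at -244 in RVE2 and -58 in RVE6, and in 7.94% of all windows. RVE7 alone among the 10 held an evening element, at -50, as did 2.79% of all windows. A match is a description of the letters and not a measured binding site.

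Recovered reads came to between 11.4 and 19.0 M per library. ILP1 read 2.63 to 3.88 FPKM in Col-0 and 2.72 to 8.90 FPKM in the libraries labelled ilp1-1, where it was higher at 0 h (1.09 ± 0.18, adjusted p = 0.000381) and 4 h (0.51 ± 0.18, adjusted p = 0.039; differences of log2(FPKM + 1) ± SE). Every direction is therefore that of the libraries as labelled. The share of plastid-encoded reads stood apart in 4 ilp1-1 libraries, at 0.203 and 0.453% at 4 h and 0.0995 and 0.129% at 8 h, against 0.0188 to 0.0349% in the other 16. Its part in the results at 4 h and 8 h was not tested. The leaf markers RBCS1A, LHCB1.3 and CA1 summed to 26456 to 42980 FPKM in Col-0 and 14807 to 39671 FPKM in ilp1-1. LHCB1.3 and CA1 were lower in ilp1-1 at every time, and RBCS1A at 16 and 30 h, with a median difference of the 3 of -1.32 at 16 h and -1.33 at 30 h. At 30 h the Col-0 mean was 3.84 times that of ilp1-1 for LHCB1.3 (-1.94 ± 0.049, adjusted p = 9.51e-13) and 2.51 times for CA1 (-1.33 ± 0.072, adjusted p = 1.93e-09). Vascular markers (SUC2, APL) summed to 33.3 to 74.4 FPKM in Col-0 and 30.7 to 77.9 in ilp1-1, and guard cell markers (KAT1, FAMA) to 5.13 to 16.6 and 6.73 to 22.3. Flower and meristem markers (AG, STM) summed to 2.17 to 4.44 FPKM and 1.61 to 6.50, and root markers to 6.00 to 17.4 and 7.04 to 12.5, nearly all of it PYK10, with COBL9 at no more than 0.032. Among these, AG was higher in ilp1-1 at 0 h (0.315 and 0.322 FPKM in Col-0, 1.67 and 2.39 in ilp1-1; 1.19 ± 0.22, adjusted p = 0.00106) and at 4 h (0.340 and 0.609 FPKM in Col-0, 2.16 and 1.18 in ilp1-1; 0.84 ± 0.22, adjusted p = 0.00849), and KAT1 at 30 h (0.70 ± 0.17, adjusted p = 0.00482). STM was lower at 8 h (-0.94 ± 0.34, adjusted p = 0.0471), and SUC2 at 4 h (-0.66 ± 0.19, adjusted p = 0.0163) and 8 h (-0.74 ± 0.19, adjusted p = 0.0095). The part of these markers in the genotype differences was not tested. In whole leaves, fewer cells of a type and less RNA per cell cannot be told apart.

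In Col-0 most of the 10 genes fell over the first 8 h and stood higher at 30 h than at 16 h. RVE2 fell with them from 0 to 4 h and rose with most from 8 to 16 h, and went the other way from 4 to 8 h and from 16 to 30 h. RVE2 was highest at 16 h in both genotypes, so the name of the group does not describe its pattern here. A gene was counted where limma gave a Benjamini-Hochberg adjusted p under 0.05 over all tested genes. From 0 to 4 h, 8 of the 10 fell (23.5% of all tested genes fell) and 0 rose (22.6% rose). Between 4 and 8 h, 8 fell (7.06%) and RVE2 alone rose (6.31%). Between 8 and 16 h, 7 rose (10.0%), and RVE7 and LNK1 fell (9.63%). Between 16 and 30 h, 7 rose (18.4%) and RVE2 fell (19.3%). The median change of the 10 over these steps was -1.46, -0.83, 0.97 and 1.15 on the log2(FPKM + 1) scale, beside -0.039, 0.011, 0.0084 and -0.0077 over all tested genes. At 30 h, 7 stood below their level at 0 h (19.7%) and RVE2 above it (20.8%).

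In ilp1-1 most of the 10 genes also fell over the first 8 h, and between 8 and 16 h as many rose as fell. From 0 to 4 h, 8 fell (20.4%) and 0 rose (20.6%). Between 4 and 8 h, 6 fell (6.66%) and RVE2 rose (6.14%). Between 8 and 16 h, LHY, RVE2, RVE4 and RVE8 rose (7.77%), and CCA1, RVE7, LNK1 and LNK2 fell (13.4%). Between 16 and 30 h, 9 of the 10 changed (44.6% of all tested genes did), 8 of them upward and RVE2 downward. Of all tested genes that changed in this step, 55.2% went up. The call of RVE2 was lost in many of the other fits. The median changes were -1.63, -0.72, 0.044 and 1.78, beside -0.015, -0.004, -0.009 and 0.02 over all tested genes. At 30 h, 8 were below their level at 0 h (24.5%) and RVE2 above it (27.6%).

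**Figure D1:**
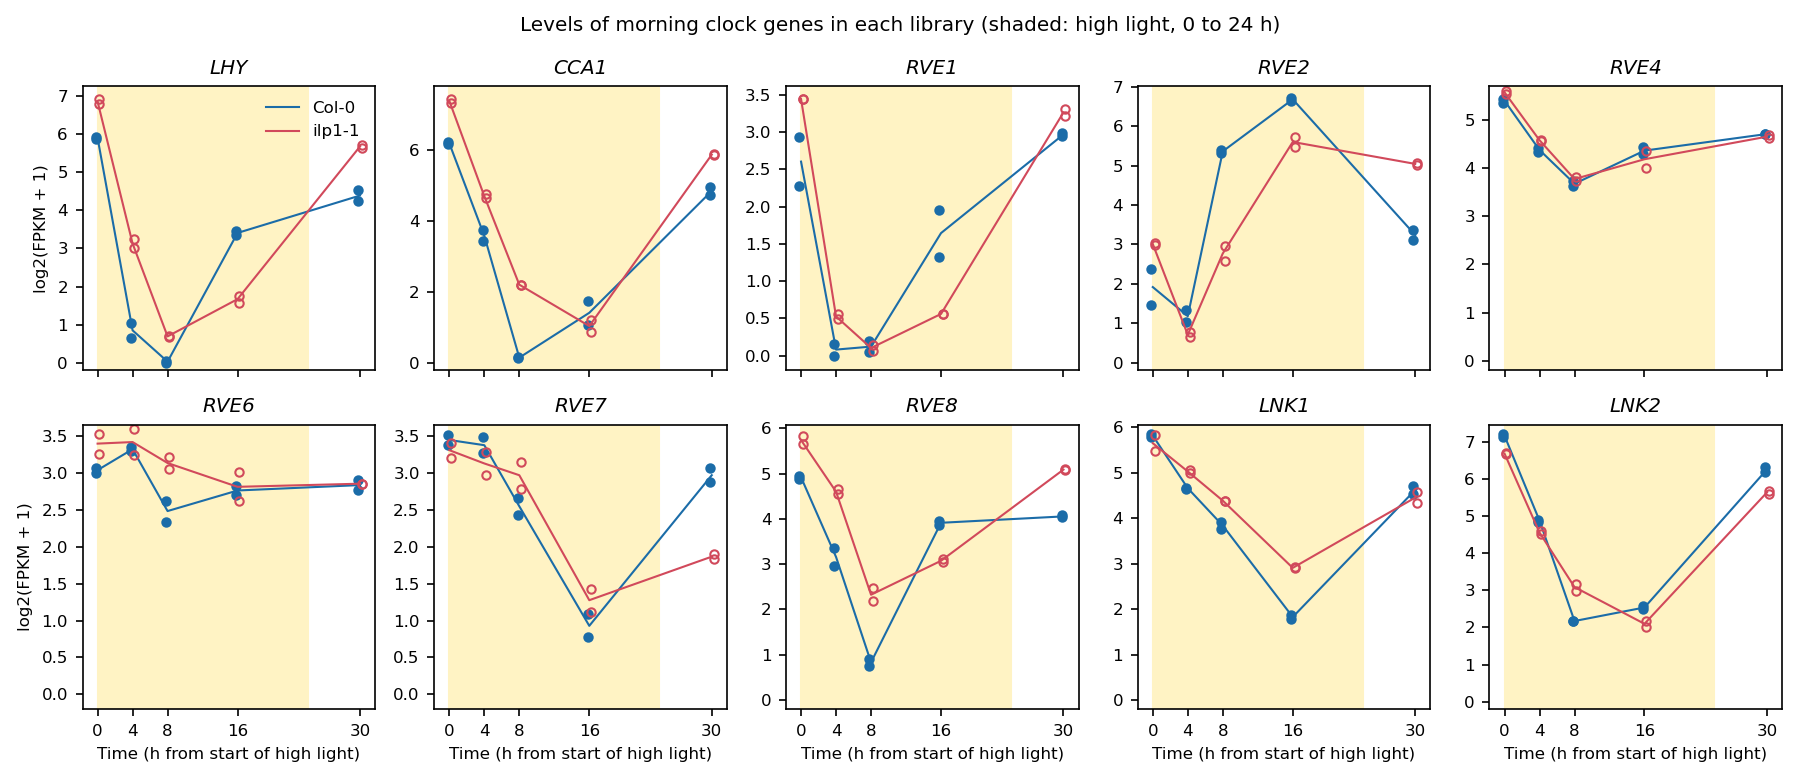
Level of each of the 10 genes as log2(FPKM + 1) against hours from the start of high light; each point is 1 library (filled blue, Col-0; open red, ilp1-1), lines join the means of the 2 libraries, and the shading marks high light from 0 to 24 h. RVE2 is highest at 16 h in both genotypes, where LNK1 and RVE7 are lowest, and LHY in Col-0 falls from 57.6 and 59.6 FPKM at 0 h to 0.0411 and 0 FPKM at 8 h.

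Between the genotypes, LHY, CCA1 and RVE8 were higher in ilp1-1 at 0, 4, 8 and 30 h, and LHY and RVE8 were lower at 16 h. At 0 h, 5 of the 10 were higher in ilp1-1 (10.0% of all tested genes were) and LNK2 was lower (12.2%). At 4 h, 4 were higher (14.7%) and LNK2 lower (15.8%). At 8 h, 6 were higher (14.3%) and RVE2 lower (15.2%). At 16 h, LNK1 was the one higher (11.0%), and LHY, RVE1, RVE2, RVE8 and LNK2 were lower (16.7%). At 30 h, 4 were higher (17.2%), and RVE7 and LNK2 were lower (16.8%). The median difference of the 10 was 0.59, 0.29, 0.60, -0.41 and 0.16 from 0 to 30 h, beside -0.0012, 0.0064, 0.011, -0.00035 and 0.04 over all tested genes. The libraries of the genotypes did not overlap for 8, 8, 8, 7 and 8 of the 10 genes, and for 59.7, 64.9, 66.5, 63.2 and 64.6% of all tested genes. At the same times 2, 2, 2, 3 and 3 of the 3 leaf markers were lower in ilp1-1.

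The library size used in the deposited FPKM was 0.889 to 0.992 times the recovered reads in Col-0 and 0.989 to 1.18 times in ilp1-1. Scaling by total reads instead moved the median genotype difference of all genes to between 0.085 and 0.23. Among all genes that passed, the share higher in ilp1-1 went from 45.1 to 65.4% at 0 h, 48.2 to 70.9% at 4 h, 48.5 to 63.1% at 8 h, 39.7 to 78.1% at 16 h and 50.5 to 76.3% at 30 h. The 10 genes then had 6 higher and 1 lower at 0 h, 5 and 0 at 4 h, 7 and 1 at 8 h, 2 and 4 at 16 h, and 4 and 2 at 30 h.

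**Figure D2:**
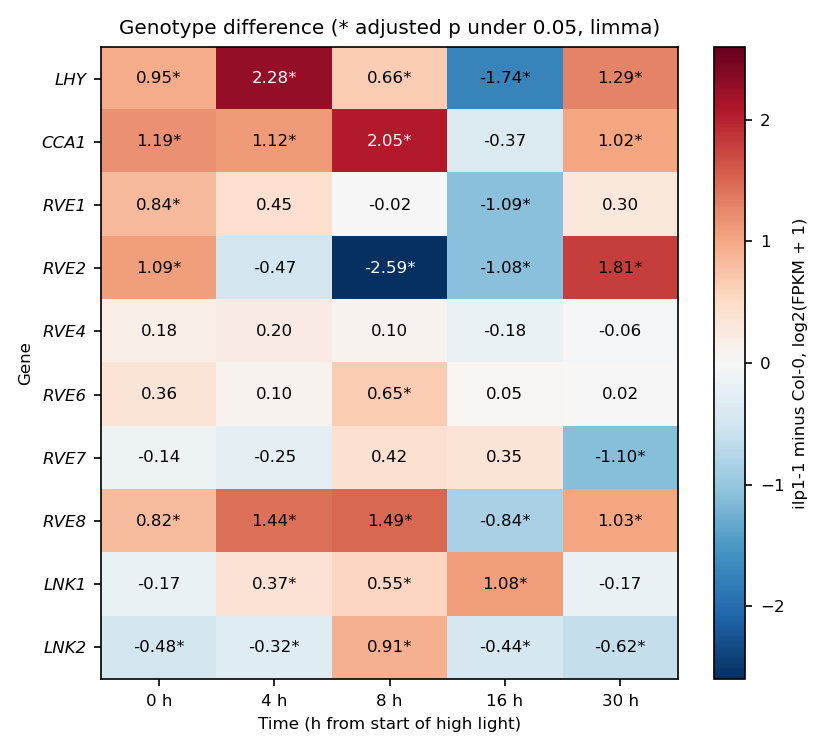
Difference between the genotypes (ilp1-1 minus Col-0) in log2(FPKM + 1) for the 10 genes, in rows, at the 5 times, in columns; red is higher in ilp1-1, blue is lower, and a star marks an adjusted p under 0.05 from limma with 2 libraries in each group. LHY reads 2.28 at 4 h and -1.74 at 16 h, RVE2 reads -2.59 at 8 h and 1.81 at 30 h, and the row of RVE4 has no star.

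Of the repressors, LHY (AT1G01060, chromosome 1, 33365 to 37871) in Col-0 gave 57.6 and 59.6 FPKM at 0 h, 1.08 and 0.566 at 4 h, 0.0411 and 0 at 8 h, 9.25 and 9.96 at 16 h and 22.0 and 18.1 at 30 h. Its ilp1-1 libraries gave 119.6 and 109.6 FPKM at 0 h, 7.06 and 8.49 at 4 h, 0.635 and 0.596 at 8 h, 2.39 and 1.99 at 16 h and 51.4 and 48.8 at 30 h. The ilp1-1 libraries were the higher at 0, 4, 8 and 30 h and the lower at 16 h, with no overlap at any time. The mean level in ilp1-1 was 1.96 times that in Col-0 at 0 h (0.95 ± 0.14, adjusted p = 0.000139). It was 9.47 times at 4 h (2.28 ± 0.14, adjusted p = 1.42e-08) and 2.50 times at 30 h (1.29 ± 0.14, adjusted p = 3.07e-06). At 16 h the mean of Col-0 was 4.39 times that of ilp1-1 (-1.74 ± 0.14, adjusted p = 1.3e-07). At 8 h LHY rested on 2 reads in Col-0 and 56 in ilp1-1, a ratio of 29.9 after scaling for depth, with an exact 95% interval of 7.89 to 253 for counting error only. The test gave 0.66 ± 0.14, adjusted p = 0.00185 there, a difference that was 2.59 with a pseudocount of 0.1 and 4.76 with limma-voom on recovered reads.

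LHY ranked 0, 30, 16, 4 and 8 h from high to low in Col-0, and 0, 30, 4, 16 and 8 h in ilp1-1, with no overlap between neighbours. It fell by 5.05 from 0 to 4 h in Col-0 and by 3.72 in ilp1-1, and the steps differed (1.32 ± 0.19, adjusted p = 0.000477; 2.18 with a pseudocount of 0.1). It then rose between 8 and 16 h by 3.38 in Col-0 and 0.98 in ilp1-1 (-2.40 ± 0.19, adjusted p = 1.4e-06; -4.68 with a pseudocount of 0.1). The rise between 16 and 30 h was 0.98 in Col-0 and 4.01 in ilp1-1 (3.02 ± 0.19, adjusted p = 2.19e-07). The fall of Col-0 from 4 to 8 h (-0.82 ± 0.14, adjusted p = 0.000586) was -2.90 with a pseudocount of 0.1, and did not pass on its own 4 libraries (adjusted p = 0.0854). The genotype difference of that step (-1.62 ± 0.19, adjusted p = 0.000117) was -0.56, adjusted p = 0.457 with a pseudocount of 0.1, and 1.49, adjusted p = 0.662 with limma-voom.

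CCA1 (AT2G46830, chromosome 2, 19245591 to 19248915) in Col-0 measured 73.5 and 70.9 FPKM at 0 h, 12.4 and 9.84 at 4 h, 0.103 and 0.130 at 8 h, 1.12 and 2.39 at 16 h and 30.1 and 25.8 at 30 h. In ilp1-1 it measured 173 and 160.1 FPKM at 0 h, 26.0 and 24.2 at 4 h, 3.64 and 3.63 at 8 h, 1.32 and 0.841 at 16 h and 57.2 and 58.0 at 30 h. The ilp1-1 libraries lay above those of Col-0 at 0, 4, 8 and 30 h, and at 16 h they overlapped. The mean in ilp1-1 was 2.31 times the Col-0 mean at 0 h (1.19 ± 0.17, adjusted p = 0.000149), 2.26 times at 4 h (1.12 ± 0.17, adjusted p = 0.000156) and 2.06 times at 30 h (1.02 ± 0.17, adjusted p = 0.000278). At 8 h, 263 reads in ilp1-1 faced 9 in Col-0, a ratio of 31.2 after scaling for depth, with an exact 95% interval of 16.2 to 68.9 for counting error only. The difference there (2.05 ± 0.17, adjusted p = 4.72e-07) was 4.11 with a pseudocount of 0.1 and 4.82 with limma-voom. The difference at 16 h did not pass (-0.37 ± 0.17, adjusted p = 0.123) but did without Col-0 16 h replicate 1 (-0.71, adjusted p = 0.00389).

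CCA1 was lowest at 8 h in Col-0 and at 16 h in ilp1-1. Its order was 0, 30, 4, 16 and 8 h in Col-0 and 0, 30, 4, 8 and 16 h in ilp1-1, with no overlap between neighbours. Between 8 and 16 h CCA1 thus rose in Col-0 (1.26 ± 0.17, adjusted p = 7.49e-05, or 3.01 with a pseudocount of 0.1) and fell in ilp1-1 (-1.17 ± 0.17, adjusted p = 0.000178). The steps differed (-2.43 ± 0.24, adjusted p = 1.13e-05, or -4.70 with a pseudocount of 0.1). Between 16 and 30 h it rose by 3.43 in Col-0 and 4.83 in ilp1-1 (1.40 ± 0.24, adjusted p = 0.00325; adjusted p = 0.0762 on the libraries of the contrast alone). The genotype difference of the 4 to 8 h step (0.94 ± 0.24, adjusted p = 0.043) was 2.93 with a pseudocount of 0.1. It did not pass with total-read scaling (0.84, adjusted p = 0.0723) or without Col-0 4 h replicate 1 (0.79, adjusted p = 0.173), among others.

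Among the activators of evening genes, RVE8 moved in the same directions as LHY. RVE8 (AT3G09600, chromosome 3, 2946239 to 2949017) gave 28.4 and 30.1 FPKM at 0 h, 9.19 and 6.83 at 4 h, 0.689 and 0.877 at 8 h, 14.6 and 13.6 at 16 h and 15.9 and 15.3 at 30 h in Col-0. With ilp1-1 the values were 49.3 and 55.7 FPKM at 0 h, 24.2 and 22.3 at 4 h, 3.55 and 4.52 at 8 h, 7.23 and 7.61 at 16 h and 33.2 and 32.8 at 30 h. No time had overlapping libraries, with ilp1-1 above Col-0 at 0, 4, 8 and 30 h and below it at 16 h. The mean of ilp1-1 stood at 1.80 times Col-0 at 0 h (0.82 ± 0.12, adjusted p = 0.000236) and 2.91 times at 4 h (1.44 ± 0.12, adjusted p = 5.11e-07). The ratio was 5.15 at 8 h (1.49 ± 0.12, adjusted p = 4.64e-07; 2.34 with limma-voom) and 2.11 at 30 h (1.03 ± 0.12, adjusted p = 1.19e-05). At 16 h the mean of Col-0 was 1.90 times that of ilp1-1 (-0.84 ± 0.12, adjusted p = 0.000112).

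The order of RVE8 was 0, 30, 16, 4 and 8 h in Col-0 and 0, 30, 4, 16 and 8 h in ilp1-1, the orders of LHY, with no overlap between neighbours. Between 8 and 16 h RVE8 rose by 3.08 in Col-0 and 0.75 in ilp1-1 (-2.33 ± 0.18, adjusted p = 8.18e-07). Its change between 16 and 30 h was 0.14 in Col-0, which did not pass (adjusted p = 0.409), and 2.01 in ilp1-1, and the steps differed (1.87 ± 0.18, adjusted p = 1.39e-05). From 0 to 4 h the fall was 1.76 in Col-0 and 1.14 in ilp1-1 (0.62 ± 0.18, adjusted p = 0.0383). That difference did not pass when any 1 of 6 of its 8 libraries was left out, and was 0.43, adjusted p = 0.154 without Col-0 4 h replicate 2.

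RVE4 and RVE6, the other activators, had the narrowest ranges of the 10 genes. RVE4 (AT5G02840, chromosome 5, 648648 to 651979) in Col-0 read 40.1 and 42.2 FPKM at 0 h, 19.3 and 20.3 at 4 h, 11.3 and 12.2 at 8 h, 18.5 and 20.7 at 16 h and 25.2 and 25.02 at 30 h. The ilp1-1 libraries read 47.7 and 45.6 FPKM at 0 h, 22.8 and 23.0 at 4 h, 12.2 and 13.1 at 8 h, 19.5 and 15.1 at 16 h and 23.6 and 24.7 at 30 h. Both genotypes were highest at 0 h and lowest at 8 h, and they overlapped at 8 h and 16 h. The mean of the highest group was 3.495 times that of the lowest in Col-0 and 3.68 times in ilp1-1. RVE4 passed in no genotype difference, with values from -0.18 at 16 h (adjusted p = 0.205) to 0.20 at 4 h (adjusted p = 0.14). That at 4 h passed with total-read scaling (0.36, adjusted p = 0.0123), and that at 16 h without ilp1-1 16 h replicate 1 (-0.35, adjusted p = 0.0184).

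In order, the libraries of RVE4 overlapped between 4 and 16 h in Col-0 and between no other neighbours. RVE4 fell from 0 to 4 h (-1.02 in Col-0, -0.99 in ilp1-1) and from 4 to 8 h (-0.70 and -0.81), and rose between 8 and 16 h (0.69 and 0.41) and between 16 and 30 h (0.35 and 0.47). The rise of ilp1-1 between 8 and 16 h did not pass without 16 h replicate 1 (0.24, adjusted p = 0.132) or 8 h replicate 1 (0.36, adjusted p = 0.07). The last rise did not pass in Col-0 without 16 h replicate 1 (0.27, adjusted p = 0.113) or 30 h replicate 1 (0.34, adjusted p = 0.0592), and was 0.29 in ilp1-1 without 16 h replicate 2.

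RVE6 (AT5G52660, chromosome 5, 21359001 to 21362273) in Col-0 stood at 7.43 and 7.04 FPKM at 0 h, 9.23 and 8.81 at 4 h, 5.18 and 4.07 at 8 h, 6.09 and 5.52 at 16 h and 5.83 and 6.48 at 30 h. In ilp1-1 it stood at 8.61 and 10.6 FPKM at 0 h, 8.51 and 11.1 at 4 h, 8.27 and 7.35 at 8 h, 7.07 and 5.13 at 16 h and 6.25 and 6.23 at 30 h. The mean of the highest group was 1.95 times that of the lowest in Col-0 and 1.61 times in ilp1-1, and the genotypes overlapped at 4, 16 and 30 h. Ordered from high to low, Col-0 ran 4, 0, 30, 16 and 8 h and ilp1-1 ran 4, 0, 8, 30 and 16 h. Neighbours overlapped between 30 and 16 h in both genotypes and between 4 and 0 h in ilp1-1. RVE6 was higher in ilp1-1 at 8 h, at 1.69 times Col-0 (0.65 ± 0.15, adjusted p = 0.00505), which did not pass without Col-0 8 h replicate 2 (0.51, adjusted p = 0.0686). Total-read scaling added 0 h (0.45, adjusted p = 0.039). It fell from 4 to 8 h in Col-0 (-0.84 ± 0.15, adjusted p = 0.00143; adjusted p = 0.0577 on its own 4 libraries). The fall from 0 to 30 h in ilp1-1 (-0.54 ± 0.15, adjusted p = 0.00796) did not pass without ilp1-1 0 h replicate 2 (-0.41, adjusted p = 0.0879) or with total-read scaling (-0.34, adjusted p = 0.0646).

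Of the remaining MYB-like genes, RVE2 peaked at 16 h, when CCA1 and LNK1 were low. RVE2 (AT5G37260, chromosome 5, 14751344 to 14753088) in Col-0 came to 1.76 and 4.16 FPKM at 0 h, 1.52 and 1.03 at 4 h, 39.2 and 41.2 at 8 h, 99.4 and 104 at 16 h and 9.31 and 7.63 at 30 h. In ilp1-1 it came to 7.24 and 6.87 FPKM at 0 h, 0.708 and 0.554 at 4 h, 6.79 and 4.96 at 8 h, 52.3 and 43.2 at 16 h and 31.4 and 32.6 at 30 h. The libraries of the genotypes overlapped at no time, with ilp1-1 the higher at 0 h and 30 h and Col-0 the higher in between. The Col-0 mean was 6.83 times that of ilp1-1 at 8 h (-2.59 ± 0.22, adjusted p = 4.57e-07) and 2.13 times at 16 h (-1.08 ± 0.22, adjusted p = 0.00147). The ilp1-1 mean was 3.78 times that of Col-0 at 30 h (1.81 ± 0.22, adjusted p = 1.09e-05) and 2.38 times at 0 h (1.09 ± 0.22, adjusted p = 0.002). The difference at 0 h was 0.64 without Col-0 0 h replicate 1, and did not pass on the 4 libraries of that hour alone (adjusted p = 0.118). That at 4 h (-0.47 ± 0.22, adjusted p = 0.112) passed with a pseudocount of 0.1 (-0.90, adjusted p = 0.0261), and in the fits without Col-0 0 h replicate 1 or 2 (adjusted p = 0.0232 and 0.0236).

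RVE2 ranked 16, 8, 30, 0 and 4 h from high to low in Col-0 and 16, 30, 0, 8 and 4 h in ilp1-1, with no overlap between neighbours. At 4 h RVE2 rested on 31 reads in Col-0 and 19 in ilp1-1. Its rise from 4 to 8 h was 4.19 in Col-0 and 2.06 in ilp1-1 (-2.12 ± 0.31, adjusted p = 0.000678; adjusted p = 0.238 with limma-voom). The rise from 8 to 16 h was 1.32 and 2.83 (1.51 ± 0.31, adjusted p = 0.00675). The fall from 16 to 30 h was 3.45 in Col-0 and 0.56 in ilp1-1 (2.89 ± 0.31, adjusted p = 4.61e-05). The ilp1-1 fall (adjusted p = 0.0474) did not pass in many of the other fits. Among these were a pseudocount of 0.1 (adjusted p = 0.12), no filter (adjusted p = 0.0802) and no trend (adjusted p = 0.0653). It also did not pass with both plastid-rich pairs of ilp1-1 libraries left out (adjusted p = 0.0529), where its size was unchanged. Without ilp1-1 16 h replicate 1 it was -0.42.

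Changes of RVE2 counted from 0 h moved with the Col-0 libraries of that hour, which were at 1.76 and 4.16 FPKM. Its fall from 0 to 4 h in Col-0 (-0.74 ± 0.22, adjusted p = 0.011) was -0.29, adjusted p = 0.233 without 0 h replicate 2, -0.58, adjusted p = 0.0982 without 4 h replicate 2, and -1.19 without 0 h replicate 1. With limma-voom it was -1.04, adjusted p = 0.123. The genotype difference of that step (-1.57 ± 0.31, adjusted p = 0.00431) was -2.39, adjusted p = 0.0564 with limma-voom. The change of Col-0 from 0 to 30 h (1.32 ± 0.22, adjusted p = 0.000149) was 0.87 without 0 h replicate 1, and its genotype difference then passed (1.17, adjusted p = 0.00386).

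RVE1 (AT5G17300, chromosome 5, 5690225 to 5692992) gave 3.83 and 6.67 FPKM at 0 h, 0.117 and 0 at 4 h, 0.0348 and 0.141 at 8 h, 1.51 and 2.89 at 16 h and 6.71 and 6.97 at 30 h in Col-0. Its ilp1-1 values were 9.92 and 9.88 FPKM at 0 h, 0.407 and 0.471 at 4 h, 0.108 and 0.0389 at 8 h, 0.478 and 0.468 at 16 h and 8.95 and 8.30 at 30 h. RVE1 rested on 3 reads in Col-0 and 27 in ilp1-1 at 4 h, and on 5 and 4 at 8 h, the one time at which the genotypes overlapped. It was higher in ilp1-1 at 0 h (0.84 ± 0.21, adjusted p = 0.0109). At 16 h the Col-0 mean was 4.66 times that of ilp1-1 (-1.09 ± 0.21, adjusted p = 0.00137; -1.94 with a pseudocount of 0.1). The difference at 0 h was 0.51, adjusted p = 0.156 without Col-0 0 h replicate 1, and did not pass without ilp1-1 0 h replicate 1 (adjusted p = 0.0536). With a pseudocount of 0.1 it did not pass at 0 h (0.96, adjusted p = 0.133) and did at 4 h (1.87, adjusted p = 0.00407).

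RVE1 was highest at 30 h in Col-0 and at 0 h in ilp1-1. From high to low, Col-0 ran 30, 0, 16, 8 and 4 h, overlapping between 8 and 4 h, and ilp1-1 ran 0, 30, 16, 4 and 8 h, overlapping between 16 and 4 h. RVE1 fell from 0 to 4 h by 2.53 in Col-0 and 2.92 in ilp1-1, and the difference of the steps did not pass (-0.40 ± 0.30, adjusted p = 0.483). With limma-voom these changes were -6.52 in Col-0 and -4.45 in ilp1-1, so which genotype fell further depended on the method. RVE1 rose from 8 to 16 h in Col-0 (1.53 ± 0.21, adjusted p = 0.000101), a rise of 3.61 with a pseudocount of 0.1. The change of ilp1-1 from 8 to 16 h was 0.46 ± 0.21, adjusted p = 0.156, and 1.75, adjusted p = 0.00897 with a pseudocount of 0.1. Between 16 and 30 h it rose by 1.33 and 2.71 (1.38 ± 0.30, adjusted p = 0.0152; 1.06, adjusted p = 0.0699 without Col-0 16 h replicate 2). The genotype difference of the 8 to 16 h step (-1.07 ± 0.30, adjusted p = 0.0523) passed without Col-0 16 h replicate 1 (-1.38, adjusted p = 0.0152). The change of Col-0 from 0 to 30 h (0.37 ± 0.21, adjusted p = 0.196) passed without 0 h replicate 2 (0.70, adjusted p = 0.0303).

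RVE7 (AT1G18330, chromosome 1, 6305814 to 6308243) stayed near its first level at 4 h, with 10.4 and 9.38 FPKM at 0 h, 10.2 and 8.61 at 4 h, 4.41 and 5.32 at 8 h, 0.710 and 1.12 at 16 h and 6.35 and 7.34 at 30 h in Col-0. The ilp1-1 libraries held 9.63 and 8.22 FPKM at 0 h, 8.75 and 6.83 at 4 h, 7.90 and 5.88 at 8 h, 1.17 and 1.70 at 16 h and 2.57 and 2.72 at 30 h. RVE7 was lowest at 16 h in both genotypes, which overlapped at 0 h and 4 h, and at 30 h ilp1-1 lay below Col-0. There the Col-0 mean was 2.59 times that of ilp1-1 (-1.10 ± 0.17, adjusted p = 0.000147). The other 4 differences did not pass, although with total-read scaling those at 8 h (0.51, adjusted p = 0.0379) and 16 h (0.51, adjusted p = 0.0302) did. Between 16 and 30 h RVE7 rose by 2.04 in Col-0 and 0.59 in ilp1-1 (-1.45 ± 0.25, adjusted p = 0.00258). The ilp1-1 rise was 0.43, adjusted p = 0.119 without its 16 h replicate 1 and 0.56, adjusted p = 0.0623 without its 30 h replicate 2.

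The order of RVE7 was 0, 4, 30, 8 and 16 h in Col-0 and 0, 4, 8, 30 and 16 h in ilp1-1, with overlap between 0 and 4 h in both and between 4 and 8 h in ilp1-1. Its change from 0 to 30 h differed between the genotypes (-0.97 ± 0.25, adjusted p = 0.0132), the one such difference that passed among the 10 genes. In that contrast 9.19% of all tested genes were lower and 7.65% higher. It did not pass without Col-0 0 h replicate 2 (-0.90, adjusted p = 0.052), Col-0 30 h replicate 2 (-0.88, adjusted p = 0.0545) or ilp1-1 0 h replicate 1 (-0.86, adjusted p = 0.0549). The fall of Col-0 from 4 to 8 h (-0.83 ± 0.17, adjusted p = 0.00395) did not pass without 4 h replicate 1 (-0.72, adjusted p = 0.052) or 8 h replicate 1 (-0.71, adjusted p = 0.0547). That from 0 to 30 h (-0.48 ± 0.17, adjusted p = 0.0386) did not pass when any 1 of its 4 libraries was left out (-0.57 to -0.39, adjusted p from 0.0565 to 0.198). AT3G10113, named RVE7-like, read at most 0.176 FPKM in any library.

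Of the coactivators, LNK2 had the highest level of the 10 genes in Col-0 at 0 h. LNK2 (AT3G54500, chromosome 3, 20175370 to 20179070) gave 147 and 139 FPKM at 0 h, 27.9 and 29.0 at 4 h, 3.51 and 3.51 at 8 h, 4.68 and 4.94 at 16 h and 78.9 and 72.4 at 30 h. Its level in ilp1-1 was 103 and 100.9 FPKM at 0 h, 23.2 and 22.0 at 4 h, 6.98 and 8.07 at 8 h, 3.51 and 3.06 at 16 h and 47.6 and 50.1 at 30 h. The libraries overlapped at no time, and ilp1-1 lay below Col-0 at each time except 8 h. The Col-0 mean was 1.40 times that of ilp1-1 at 0 h (-0.48 ± 0.084, adjusted p = 0.000795) and 1.26 times at 4 h (-0.32 ± 0.084, adjusted p = 0.00918). It was 1.46 times at 16 h (-0.44 ± 0.084, adjusted p = 0.00107) and 1.55 times at 30 h (-0.62 ± 0.084, adjusted p = 3.97e-05; -0.40 with total-read scaling). At 8 h the ilp1-1 mean was 2.14 times that of Col-0 (0.91 ± 0.084, adjusted p = 1.24e-06). With total-read scaling the differences at 4 h (-0.16, adjusted p = 0.156) and 16 h (-0.22, adjusted p = 0.0518) did not pass. Nor did that at 4 h without Col-0 4 h replicate 2 (-0.29, adjusted p = 0.0591) or ilp1-1 4 h replicate 2 (-0.29, adjusted p = 0.0724).

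LNK2 ranked 0, 30, 4, 16 and 8 h in Col-0 and 0, 30, 4, 8 and 16 h in ilp1-1, the orders of CCA1, with no overlap between neighbours. It fell from 4 to 8 h by 2.71 in Col-0 and by 1.47 in ilp1-1 (1.24 ± 0.12, adjusted p = 2.16e-05). Between 8 and 16 h it rose in Col-0 (0.37 ± 0.084, adjusted p = 0.00578) and fell in ilp1-1 (-0.99 ± 0.084, adjusted p = 7.97e-07), and the steps differed (-1.36 ± 0.12, adjusted p = 3.62e-06). The Col-0 rise did not pass with limma-voom (0.46, adjusted p = 0.0637) or on its own 4 libraries (adjusted p = 0.144).

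LNK1 (AT5G64170, chromosome 5, 25672466 to 25676823) declined to 16 h in both genotypes, with 53.9 and 57.0 FPKM at 0 h, 24.5 and 24.2 at 4 h, 12.6 and 14.0 at 8 h, 2.44 and 2.65 at 16 h and 25.3 and 22.1 at 30 h in Col-0. In ilp1-1 LNK1 gave 56.0 and 43.4 FPKM at 0 h, 32.4 and 31.0 at 4 h, 19.98 and 19.9 at 8 h, 6.58 and 6.44 at 16 h and 19.2 and 22.9 at 30 h. The genotypes overlapped at 0 h and 30 h, and ilp1-1 lay above Col-0 in between. The mean of ilp1-1 was 1.304 times that of Col-0 at 4 h (0.37 ± 0.11, adjusted p = 0.0216), 1.496 times at 8 h (0.55 ± 0.11, adjusted p = 0.00185) and 2.55 times at 16 h (1.08 ± 0.11, adjusted p = 3.05e-06). The difference at 4 h did not pass when any 1 of its 4 libraries was left out (0.34 to 0.40, adjusted p from 0.0626 to 0.111). LNK1 overlaps AT5G64160 on the opposite strand, which reached 17.4 FPKM. LNK2 overlaps AT3G08405 and AT3G54490 on the opposite strand, at up to 1.4 and 0.4 FPKM. If the counting did not use strand, a setting not given in the sources used here, reads of such overlapping genes cannot be told apart.

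From high to low LNK1 ranked 0, 4, 30, 8 and 16 h in both genotypes, with overlap between 4 and 30 h in Col-0 and between 30 and 8 h in ilp1-1. Between 16 and 30 h it rose by 2.80 in Col-0 and 1.55 in ilp1-1 (-1.25 ± 0.16, adjusted p = 0.00026). From 0 to 4 h it fell by 1.16 in Col-0 and 0.62 in ilp1-1 (0.53 ± 0.16, adjusted p = 0.0481). That difference did not pass in most of the other fits. Among these were a pseudocount of 0.1 (adjusted p = 0.0544), no trend (adjusted p = 0.073) and the replicate block (adjusted p = 0.0586). Without ilp1-1 0 h replicate 2 it was 0.35. The difference of the 8 to 16 h step (0.53 ± 0.16, adjusted p = 0.0671) passed with total-read scaling (0.68, adjusted p = 0.0201) and a pseudocount of 0.1 (0.74, adjusted p = 0.0151).

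The steps differed between the genotypes for 7 of the 10 genes between 16 and 30 h and for 5 between 8 and 16 h. From 0 to 4 h the change of ilp1-1 was higher than that of Col-0 for 3 genes and lower for 1 (4.22 and 5.12% of all tested genes). From 4 to 8 h it was higher for 2 and lower for 2 (2.30 and 1.58%), and from 8 to 16 h higher for 1 and lower for 4 (1.01 and 4.78%). From 16 to 30 h it was higher for LHY, CCA1, RVE1, RVE2 and RVE8 and lower for LNK1 and RVE7 (2.84 and 1.80%). CCA1 and LNK2 were the genes that rose in Col-0 and fell in ilp1-1 between 8 and 16 h. Neighbouring steps share the libraries of the time between them, so opposite differences in neighbouring steps are not separate measurements.

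**Figure D3:**
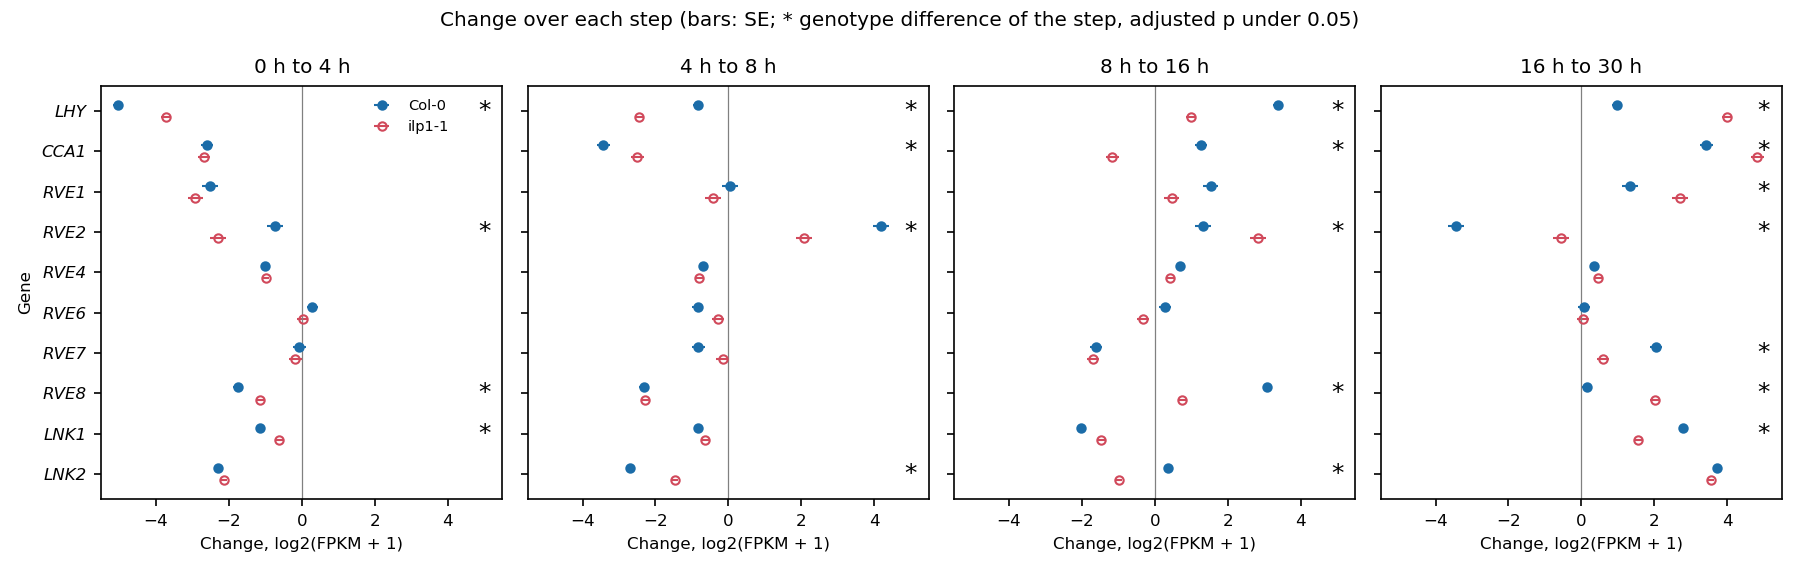
Change of each gene over the 4 steps between neighbouring times, as log2(FPKM + 1) ± SE (bars), in Col-0 (filled blue) and ilp1-1 (open red), with 2 libraries in each group; a star marks an adjusted p under 0.05 for the difference between the genotypes. From 8 to 16 h CCA1 lies at 1.26 in Col-0 (3.01 with a pseudocount of 0.1) and -1.17 in ilp1-1, and from 16 to 30 h LHY lies at 0.98 in Col-0 and 4.01 in ilp1-1.

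Summed by role, repressors over activators stood higher in ilp1-1 at 0, 4, 8 and 30 h and lower at 16 h. The summed FPKM of LHY and CCA1 over that of RVE4, RVE6 and RVE8 in Col-0 was 1.73 and 1.64 at 0 h, 0.357 and 0.290 at 4 h, 0.00839 and 0.00759 at 8 h, 0.265 and 0.311 at 16 h and 1.11 and 0.936 at 30 h. In ilp1-1 this ratio was 2.77 and 2.41 at 0 h, 0.596 and 0.580 at 4 h, 0.178 and 0.169 at 8 h, 0.110 and 0.102 at 16 h and 1.72 and 1.68 at 30 h. The libraries of the genotypes did not overlap at any time. Within the activators, RVE8 over RVE4 was lowest at 8 h, at 0.0608 and 0.0718 in Col-0 and 0.291 and 0.344 in ilp1-1. It was highest at 1.41 and 1.33 in ilp1-1 at 30 h, where Col-0 stood at 0.629 and 0.613. These sums were not tested and leave out the family members RVE3 and RVE5. In Col-0 at 8 h the sum of the repressors rests on 2 reads of LHY and 9 of CCA1.

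**Figure D4:**
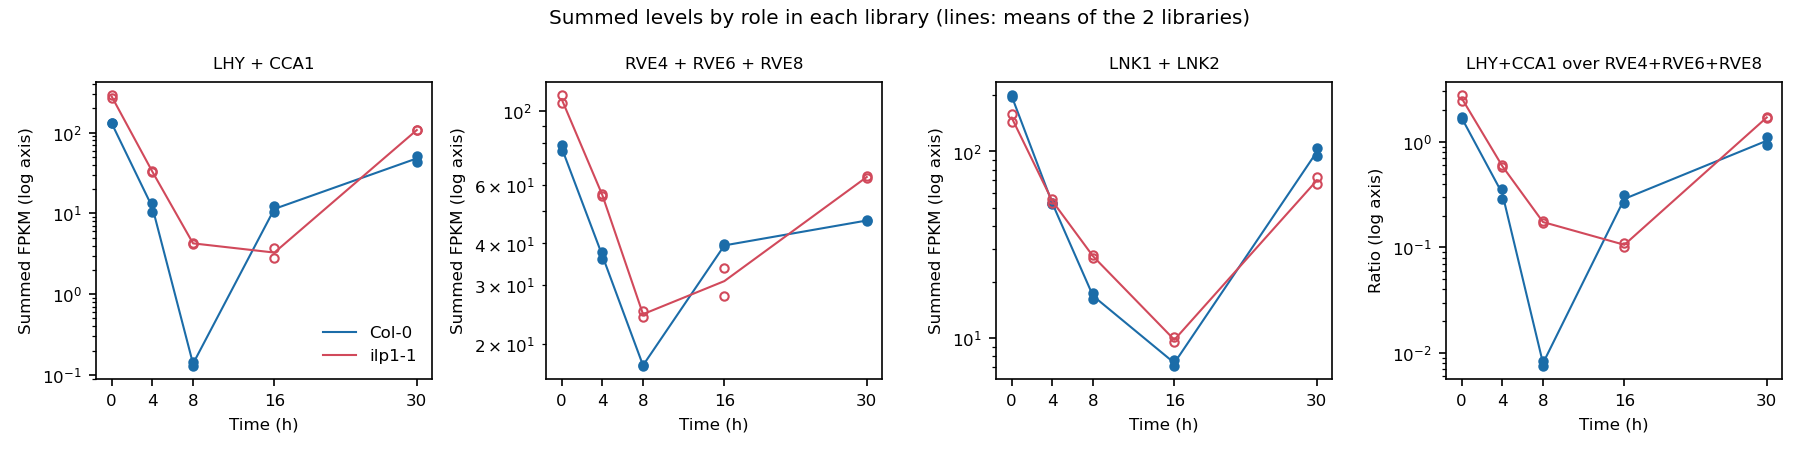
Summed FPKM of the repressors LHY and CCA1, of the activators RVE4, RVE6 and RVE8 and of the coactivators LNK1 and LNK2, and the ratio of the first sum to the second, on log axes against hours from the start of high light; points are libraries (filled blue, Col-0; open red, ilp1-1) and lines join the means of the 2 libraries. The ratio in Col-0 dips to 0.00839 and 0.00759 at 8 h, where ilp1-1 stands at 0.178 and 0.169.

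The closest relatives outside the 10 genes were higher in ilp1-1 wherever they passed. Of RVE3, RVE5, LNK3 and LNK4, the 4 tested of 5 listed, 0 were lower at any time (12.2 to 16.8% of all tested genes were). There were 4 higher at 0 h (10.0% of all tested genes), 3 at 4 h (14.7%), 8 h (14.3%) and 16 h (11.0%), and 2 at 30 h (17.2%). RVE3 stood at 6.66 and 5.10 FPKM in Col-0 and 50.7 and 42.2 in ilp1-1 at 0 h (2.79 ± 0.19, adjusted p = 8.12e-08). RVE5 at 30 h stood at 6.26 and 6.04 and 9.52 and 10.9 FPKM (0.64 ± 0.11, adjusted p = 0.000346). LNK4 at 8 h stood at 2.62 and 2.84 FPKM in Col-0 and 10.96 and 11.03 in ilp1-1 (1.69 ± 0.084, adjusted p = 2.76e-09), and LNK3 at 2.43 and 2.45 and 6.86 and 6.43 (1.15 ± 0.11, adjusted p = 1.43e-06). LNK3 and LNK4, like LNK1, had their lowest level at 16 h in both genotypes. RVE3 overlaps AT1G01510 on its own strand, which reached 14.8 FPKM, and RVE5 and LNK3 overlap AT4G01290 and AT3G12340 on the opposite strand, at up to 14.2 and 14.7 FPKM.

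Of the 19 PRR, evening and accessory clock genes, 2 were higher and 4 lower in ilp1-1 at 0 h (10.0 and 12.2% of all tested genes). The counts were 1 and 11 at 4 h (14.7 and 15.8%), and 2 and 7 at 8 h (14.3 and 15.2%). They were 5 and 3 at 16 h (11.0 and 16.7%), and 2 and 6 at 30 h (17.2 and 16.8%). PRR9, a pseudo-response regulator that represses CCA1 and LHY, stood at 0.952 and 0.331 FPKM in Col-0 and 9.37 and 10.9 in ilp1-1 at 8 h (2.78 ± 0.17, adjusted p = 1.99e-08). GI, an evening clock protein, stood at 1.24 and 1.24 FPKM in Col-0 and 8.87 and 9.34 in ilp1-1 at 16 h (2.17 ± 0.17, adjusted p = 9.51e-08). JMJ30, a histone demethylase, was lower in ilp1-1 at 8 h (-2.61 ± 0.14, adjusted p = 4.71e-09). FKF1, a blue-light receptor, was lower at 4 h (-2.10 ± 0.16, adjusted p = 1.68e-07) and overlaps AT1G68060 on the opposite strand, at up to 19.1 FPKM.

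Of the 3 evening outputs, GRP7, GRP8 and CAT3, all were lower in ilp1-1 at 4 h and at 30 h (15.8 and 16.8% of all tested genes were). At 0 h 1 was higher and 1 lower (10.0 and 12.2%), at 8 h 2 were lower (15.2%), and at 16 h 1 was higher (11.0%). The RNA-binding protein GRP7 stood at 368 and 390.3 FPKM in Col-0 and 101.1 and 132 in ilp1-1 at 30 h (adjusted p = 2.16e-09), where its relative GRP8 (-0.99 ± 0.092, adjusted p = 6.88e-07) and the catalase CAT3 (-1.20 ± 0.098, adjusted p = 1.69e-07) were also lower. The morning outputs, 7 tested of 9 listed, had 0 higher and 2 lower at 0 h (10.0 and 12.2% of all tested genes). They had 2 and 1 at 4 h (14.7 and 15.8%), and 2 and 2 at 8 h (14.3 and 15.2%). At 16 h they had 2 and 1 (11.0 and 16.7%), and at 30 h 1 and 4 (17.2 and 16.8%). The catalase CAT2 was higher in ilp1-1 at 8 h (1.59 ± 0.074, adjusted p = 1.95e-09), and the growth regulator PIF5 at 16 h (0.98 ± 0.11, adjusted p = 1.07e-05). PIF4, a relative of PIF5 (-2.08 ± 0.16, adjusted p = 6.05e-08), and CDF1, a repressor of flowering (-1.56 ± 0.19, adjusted p = 1.42e-05), were lower at 30 h.

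Of 6 splicing factors known to affect the clock period, 0 passed at 0 h (10.0% of all tested genes were higher and 12.2% lower). At 4 h 1 was higher (14.7%) and 1 lower (15.8%), and at 8 h 1 was higher (14.3%). At 16 h 1 was higher (11.0%) and 1 lower (16.7%), and at 30 h 1 was lower (16.8%). SKIP was higher at 4 h (0.28 ± 0.076, adjusted p = 0.0104), when LSM4 was lower (-0.26 ± 0.089, adjusted p = 0.0337), and GEMIN2 was lower at 16 h (-0.39 ± 0.11, adjusted p = 0.0163). PRMT5 had a lower change in ilp1-1 than in Col-0 between 16 and 30 h (-0.72 ± 0.15, adjusted p = 0.0101).

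The genes nearest in pattern to each member were taken from 12067 genes outside all lists with a mean of at least 5 FPKM. Distance was the root mean square difference of the 10 group means of log2(FPKM + 1), centred per gene, and is a description with no test. Nearest to LHY were AT2G41250, BAM9 (1.06) and NAC029, and to CCA1 MIP1A (1.04), SAMDC2 and RPT2, although LNK2 lay closer to CCA1 (0.81). LNK2 had LHCB4.2 (0.59), a light-harvesting protein, RPT2 and MIP1A. RVE8 had AT4G38960, AT5G54130 and BBX25 (0.52), and RVE1 had BAM9 (0.37), CYP71B12 and GASA1. LNK1 had AT3G53830, BBX24 (0.40) and GOLS1, and RVE7 had BBX24 (0.30), AT5G67390 and ANTR1. RVE4 had PHL6 (0.13), CCH and ABCG12, and RVE6 had CBSDUF1 (0.13), SOT16 and SQE3. RVE2 had ATGSTF5 (1.05), COL9 and BHLH100, and the member at the smallest distance was RVE6 (2.17). RVE6 changed little, its centred means running from -0.52 to 0.41 against -2.85 to 3.13 in RVE2. The distance is not scaled for range, so it does not mark RVE6 as alike in pattern.

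On the chromosomes, 10411 bases and 3 genes separate CCA1 from PRR9, and 6617 bases and 4 genes separate RVE4 from PRR7. The annotation gives the 10 genes 1 to 9 mRNA models each, with 4 to 9 introns in the model that has most, against medians of 1 model and 4 introns over 18162 tested genes with an mRNA. FPKM counts all reads of a gene, and isoforms were not analysed here.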

How the data were processed

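The authors deposited 10 tables of FPKM values for 33104 genes, 1 table per genotype and time with 2 libraries each. HISAT2 2.0.5, featureCounts 1.5.0-p3 and TAIR10 are named per the submitters' processing notes. Their options, strand included, and the program behind the FPKM were not given in the sources used here. Multiplying FPKM by gene length returned whole reads in each library (tolerance 0.001), 11.4 to 19.0 M of them, on 1 normalization shared by all tables. Intervals on reads cover counting error only.

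The deposited FPKM were tested as log2(FPKM + 1) with limma 3.58.1 in R 4.3.3, over 19311 genes that reached 1 FPKM in 2 or more libraries. A single fit of 10 group means with an intensity trend had 10 residual degrees of freedom and 5.12 prior ones (median). There were 20 contrasts: 5 genotype differences, 4 steps and the change from 0 to 30 h in each genotype, and the genotype difference of those 5 changes. Genes counted as changed where the Benjamini-Hochberg adjusted p, taken per contrast over every tested gene, was under 0.05. A pseudocount of 1 understates fold changes of low genes. Replicates differed beyond counting noise (chi-square of 3.70 to 9.18 per gene), most in ilp1-1 at 30 h (9.18) and 0 h (8.36). The other groups lay at 3.70 to 4.84. The fit gives each gene 1 spread shared by all groups.

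The 10 genes and the other lists were chosen with earlier results of these data known. All 10 are described in every group. Of each other list, up to 4 genes with the smallest adjusted p over genotype contrasts are named, and for each of the 10 the 3 nearest genes in pattern. The alternatives were a smaller pseudocount of 0.1, testing every gene, size factors, total-read scaling, limma-voom on recovered reads, no trend, a replicate block, fits on the libraries of a contrast only, and leaving out single libraries. A further one, leaving out both pairs of ilp1-1 libraries with a high plastid share, was added after seeing the data. Coordinates in the tables equalled those of TAIR10.1 for 32532 of 32548 nuclear genes (99.95%), so windows of 300 bases were read from that sequence, credited to RefSeq. Python 3.11.15, numpy 2.4.6, pandas 2.3.3, scipy 1.17.1 and matplotlib 3.10.9 were used.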

Additional observations from a re-analysis of the deposited data

Results flagged for a closer look

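For 21 pairs of a gene and a step, the change in ilp1-1 differed from that in Col-0 by limma's interaction term (adjusted p under 0.05). All values are ilp1-1 minus Col-0 on the log2(FPKM + 1) scale. From 0 to 4 h these were LHY (1.32), RVE8 (0.62), LNK1 (0.53) and RVE2 (-1.57). From 4 to 8 h they were CCA1 (0.94), LNK2 (1.24), LHY (-1.62) and RVE2 (-2.12). From 8 to 16 h they were LHY (-2.40), CCA1 (-2.43), RVE8 (-2.33), LNK2 (-1.36) and RVE2 (1.51). From 16 to 30 h they were LHY (3.02), RVE2 (2.89), RVE8 (1.87), CCA1 (1.40), RVE1 (1.38), LNK1 (-1.25) and RVE7 (-1.45). Over the whole course from 0 to 30 h it was RVE7 (-0.97). Groups held 2 libraries, so no single library could be set apart from its group.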

How the results depend on the processing

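Of 5720 values of the 10 genes under the alternatives, 5577 kept their side of the threshold, 120 no longer passed, 22 newly passed and 1 reversed; 49 of the 5577 changed sign without passing in either fit. The reversed value was LHY, the genotype difference of the 4 to 8 h step, at 1.49 with limma-voom against -1.62; the Col-0 libraries of 8 h held 2 and 0 reads of LHY. Counts of genes that passed moved by over 1.5 times in 4 comparisons. For the genotype difference at 4 h (5), leaving out 1 library gave 3 to 6, with 3 without Col-0 4 h replicate 2 or ilp1-1 4 h replicate 2. For the difference of the 0 to 4 h step (4), no filter gave 2, no trend 2, the libraries of the contrast alone 1, and leaving out 1 library 2 to 4 (2 without either Col-0 0 h library, Col-0 4 h replicate 2 or either ilp1-1 4 h library). For that of the 4 to 8 h step (4), limma-voom gave 2. For that of the 0 to 30 h change (1), limma-voom gave 2, and leaving out 1 library 0 to 2 (0 without Col-0 0 h replicate 2, Col-0 30 h replicate 2 or ilp1-1 0 h replicate 1). The cause was not tested. With both plastid-rich pairs of ilp1-1 libraries left out, a choice made after seeing the data, 119 of 120 values of the other contrasts kept their side, RVE2 in ilp1-1 from 16 to 30 h being the exception. Over 45 pairs of groups, deviations of libraries with the same replicate number correlated between -0.148 and 0.126, with 1 pair over 0.1. No strong shared deviation was thus seen, but the labels do not say whether such libraries shared a batch or harvest. With the replicate block, counts went from 9 to 8 for ilp1-1 from 16 to 30 h, and from 4 to 3 for the differences of the 0 to 4 h and the 4 to 8 h step, and stayed equal elsewhere; the calls lost were RVE2 (adjusted p = 0.0561), LNK1 (adjusted p = 0.0586) and CCA1 (adjusted p = 0.0545), in this order of contrasts. Low reads limited, among others, LHY, CCA1 and RVE1 at 8 h and RVE1 at 4 h. RVE2 at 4 h rested on 31 reads in Col-0 and 19 in ilp1-1, and RVE1 in ilp1-1 at 16 h on 29.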
